A study of Mus musculus with 6 samples.

Results

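The 10 genes described here encode transcription factors and transcription cofactors known for their roles in mouse spermatogonial stem cells: Zbtb16, Etv5, Bcl6b, Lhx1, Id4, Foxo1, Neurog3, Taf4b, Sall4 and Pou3f1. They were chosen by symbol, without reference to a measured value, as all probes that the platform annotation assigns to them. This gave 17 probes of the 45281 on the array, and 10 of the 19057 genes with a singly named probe. The study set 3 samples of cells taken from CD1 ovaries at 3 days of age and labelled female germline stem cell (FGSC) against 3 samples from CD1 testes at 6 days, which stand for spermatogonial stem cells (SSC). Each sample had its own Mouse WG-6 v2.0 array from Illumina, a bead array read in 1 colour, after amplification and biotin labelling of total RNA. Organ, sex and age change together from FGSC to SSC and cannot be told apart. The labels name no mutation or treatment and do not say how the cells were enriched or cultured, nor whether the replicates came from separate animals, so a p-value here reflects the scatter of these samples alone, which could be technical.

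Spermatogonial stem cells renew themselves and supply the differentiating spermatogonia of the testis. Sertoli cells secrete GDNF, which signals through the receptor Ret and its co-receptor Gfra1, and in cultured mouse spermatogonia this signal raises the transcription of Etv5, Bcl6b, Lhx1 and Pou3f1, whereas Zbtb16, Foxo1 and Taf4b are also needed for the maintenance of the stem cells. Id4 marks a subset of spermatogonia rich in stem cell activity, Neurog3 marks undifferentiated spermatogonia that include progenitors on the way to differentiation, and Sall4 is shared by undifferentiated spermatogonia, pluripotent cells and early germ cells of either sex.

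Relative to SSC, FGSC had less signal for Zbtb16, Etv5, Lhx1 and Sall4 and more for Pou3f1 among the probes whose signals follow the order of their detection p-values. Zbtb16 was 7.94-fold lower, Etv5 2.36-fold and 2.14-fold lower on its 2 probes, and Lhx1 at least 3.24-fold and at least 2.43-fold lower. These sizes hold for the background correction used. Without it the log2 difference was -1.72 instead of -2.99 for Zbtb16, and -0.94 instead of -1.89 for the first Lhx1 probe. The probes of Neurog3 and Bcl6b were also called lower, but all of their FGSC signals were above what their detection p-values allow on the same arrays. Id4 was called higher on 1 probe and was not called on the other, neither Foxo1 probe was called, and neither Taf4b probe passed the filter on dim signals. Of the 17 probes 14 passed that filter, and 10 of them were called, with 2 higher and 8 lower in FGSC. Over all 18860 probes tested, 59.0% were called, 29.4% higher and 29.6% lower. The median difference was -0.97 on the log2 scale over the 14 tested probes and 0.00 over all tested probes. A probe that passed the filter only through the group in which it was bright was prone to be called in that direction, so these counts describe the probes and support nothing further.

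The signal is the mean bead intensity on a linear scale before normalization, and the detection p of a probe is the share of negative control beads on the array that are at least as bright, so that on 1 array a brighter probe cannot have a larger detection p. A probe was taken as detected where its detection p was under 0.05. Differences are FGSC minus SSC of background-corrected, quantile-normalized log2 signals, with the standard error (SE) from limma and p-values adjusted by Benjamini-Hochberg over all 18860 probes. Log2 levels are given as mean ± SD with n = 3 in each group. Because the RNA is from bulk samples, fewer cells of a type and less RNA per cell cannot be told apart.

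Fewer probes were detected in FGSC. Between 16198 and 17231 probes were detected on FGSC arrays, against 18574 to 18823 on SSC arrays, and the median signal lay between 94.1 and 98.6 on all 6. FGSC replicate 3 had the lowest 95th percentile of signal, 403, against 464 to 577 on the other arrays. Correlations of log2 values over all tested probes were 0.956 to 0.993 within FGSC, 0.984 to 0.994 within SSC and 0.777 to 0.827 between the groups. Without FGSC replicate 3 the number of called probes of the 10 genes was 11 instead of 10, the additional call being a Sall4 probe described below.

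**Figure D1:**
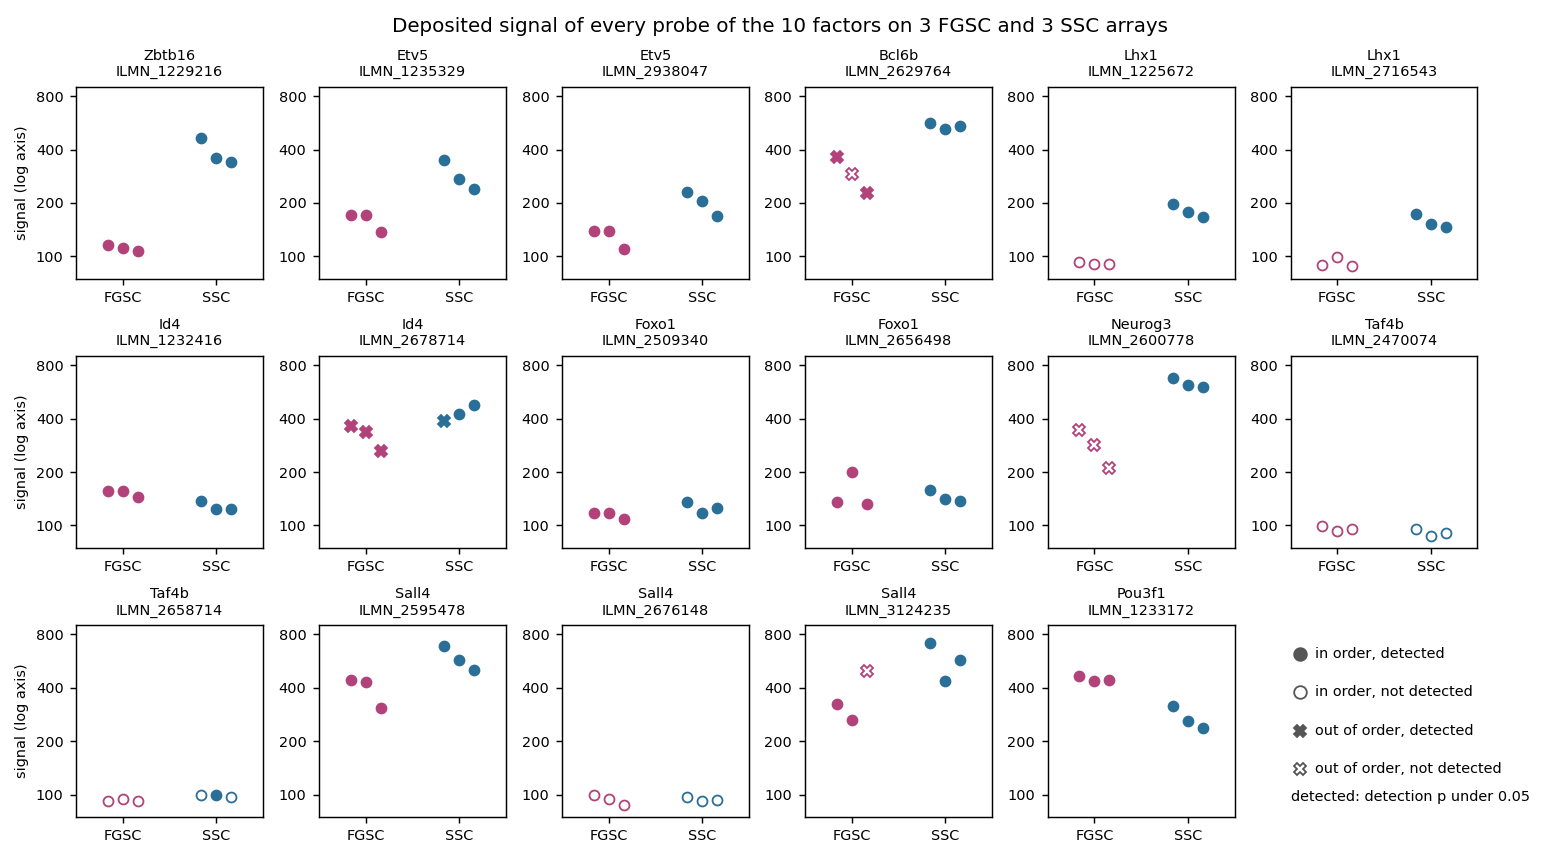
Deposited signal (linear scale on a log axis) of each of the 17 probes, with FGSC left of SSC and 1 point per array; filled points were detected at a detection p under 0.05, open points were not, and crosses are out of order with their detection p. Zbtb16, Etv5 and Lhx1 are separated with FGSC below SSC, Pou3f1 with FGSC above SSC, and Taf4b lies near the array medians in both groups.

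Zbtb16, also known as PLZF, is a zinc finger repressor whose loss in mice leads to a progressive loss of spermatogonia. Its probe (ILMN_1229216, gene on chromosome 9) had signals of 116, 112 and 107 in FGSC and 464, 361 and 339 in SSC. The detection p was 0.00321, 0.00321 and 0.00427 in FGSC and 0 on each SSC array, so the transcript was detected on all 6 arrays, close to the background in FGSC and well above it in SSC. The log2 level was 5.24 ± 0.06 in FGSC and 8.23 ± 0.11 in SSC, a difference of -2.99 (SE 0.09, adjusted p = 1.54e-06).

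The GDNF-responsive genes come next. Lhx1 encodes a LIM homeodomain factor and Etv5 an ETS factor that is required for stem cell renewal in the mouse testis. The promoters of these 2 genes are shown because each gene was lower in FGSC on all of its probes, with every signal in the order of its detection p. They are the 250 bases before and the 50 after the annotated start, 5′ to 3′ on the gene's strand, from RefSeq on GRCm38.p6, at chr11:84525485-84525784 (minus strand) for Lhx1 and chr16:22439521-22439820 (minus strand) for the upstream of the 2 Etv5 starts in that table. Capitals mark matches, on either strand, to CCAAT (written ATTGG where it lies on the opposite strand), to GGGCGG or to TGACGT.
Lhx1: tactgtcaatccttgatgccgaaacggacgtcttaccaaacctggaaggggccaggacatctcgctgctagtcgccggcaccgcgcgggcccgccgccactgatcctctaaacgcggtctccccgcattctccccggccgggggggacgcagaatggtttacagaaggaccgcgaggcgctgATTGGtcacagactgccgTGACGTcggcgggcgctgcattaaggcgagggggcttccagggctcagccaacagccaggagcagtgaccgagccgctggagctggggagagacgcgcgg
Etv5: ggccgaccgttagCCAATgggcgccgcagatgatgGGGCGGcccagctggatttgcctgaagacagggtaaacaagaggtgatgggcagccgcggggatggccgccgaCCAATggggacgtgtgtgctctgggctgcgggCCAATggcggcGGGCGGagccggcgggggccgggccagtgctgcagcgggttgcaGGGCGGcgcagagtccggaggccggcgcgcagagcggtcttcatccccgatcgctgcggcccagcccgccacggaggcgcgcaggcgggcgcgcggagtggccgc
The Lhx1 window held 1 CCAAT and 1 TGACGT, and the Etv5 window 3 CCAAT and 3 GGGCGG, with no overlap between matches. Of the 32851 promoters of this length in the table, 37.4% held CCAAT, 35.7% held GGGCGG and 7.51% held TGACGT. A search on both strands for the TATA box TATAAA (in 13.6% of all promoters), the AP-1 motif TGANTCA (in 7.81%) and the ETS motif CCGGAAG (in 8.86%) found no match in either window. The G and C content was 65.7% for Lhx1 and 74.0% for Etv5, against a median of 52.7% over all promoters. The window of the other Etv5 start, not shown, held 1 CCAAT and none of the other motifs, with a G and C content of 60.0%. Of the 10 genes, 5 were matched in the promoter table.

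The first Lhx1 probe (ILMN_1225672) had signals of 93.1, 90.3 and 90.8 in FGSC, with detection p of 0.731, 0.810 and 0.552, and signals of 198, 177 and 168 in SSC, each with detection p of 0. The second (ILMN_2716543) had 89.5, 98.6 and 87.8 in FGSC, with detection p of 0.928, 0.0919 and 0.850, and 174, 152 and 147 in SSC, again at detection p of 0. Lhx1 was thus detected on every SSC array and on no FGSC array by either probe. Against the lowest detected signal on each FGSC array, the FGSC level was at least 3.24-fold lower by the first probe and at least 2.43-fold lower by the second. These bounds hold for the background correction used. The fitted differences were -1.89 (SE 0.07, adjusted p = 3.66e-06) and -1.45 (SE 0.09, adjusted p = 2.78e-05). Among all probes that were undetected on every FGSC array and tested, 71.9% of 1685 were called lower in FGSC, since such a probe could pass the filter only through SSC.

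Etv5 was well detected in each group. Its first probe (ILMN_1235329) had signals of 172, 172 and 137 in FGSC and 350, 273 and 238 in SSC, each at detection p of 0. Its second probe (ILMN_2938047) had 139, 139 and 110 in FGSC and 229, 206 and 168 in SSC, with a detection p above 0 only in FGSC replicate 3, 0.00427. The groups did not overlap on either probe. The differences were -1.24 (SE 0.13, adjusted p = 0.000243) and -1.10 (SE 0.19, adjusted p = 0.00239), so the 2 probes gave similar sizes.

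Pou3f1, a POU domain factor also known as Oct6, went the other way. Its probe (ILMN_1233172, chromosome 4) had signals of 468, 435 and 441 in FGSC and 314, 259 and 236 in SSC, all at detection p of 0. All FGSC signals were above all SSC signals. The level was 8.55 ± 0.30 in FGSC and 7.51 ± 0.14 in SSC, which is 2.05-fold higher in FGSC (difference 1.04, SE 0.16, adjusted p = 0.00168).

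Bcl6b encodes a zinc finger repressor of the BTB family, and its signals did not keep the order of their detection p-values. Its probe (ILMN_2629764, chromosome 11) had signals of 361, 292 and 228 in FGSC, with detection p of 0.0278, 0.112 and 0.0182, and 564, 519 and 540 in SSC, each with detection p of 0. Other probes with the same detection p on the same FGSC arrays had median signals of 104, 98.2 and 101, so the FGSC signals stood 3.47, 2.98 and 2.26 times above them. As deposited, the difference was -1.15 (SE 0.13, adjusted p = 0.000394). With the FGSC signals replaced by the medians of probes with the same detection p, it was -4.22 (adjusted p = 6.47e-07).

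Neurog3, a basic helix-loop-helix factor, showed the same feature at larger detection p. Its probe (ILMN_2600778, chromosome 10) had signals of 346, 285 and 210 in FGSC, with detection p of 0.451, 0.264 and 0.0855, and 674, 616 and 607 in SSC, each with detection p of 0. By its detection p, Neurog3 was detected on every SSC array and on no FGSC array, whereas its deposited FGSC signals were 3.61, 2.98 and 2.17 times the medians of 95.9, 95.5 and 96.6 that the detection p implied. Of the 304 other probes within 5% of the Neurog3 signal in FGSC replicate 1, 296 had a detection p of 0. The difference was -1.51 as deposited (SE 0.14, adjusted p = 0.000142) and -4.77 with the implied signals (adjusted p = 2.73e-07).

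A signal was counted as out of order where it lay more than 2% beyond the median signal of the next detection p on its array. Of the 102 signals of the 17 probes, 11 were out of order, all too high. They lay on the probes of Bcl6b and Neurog3 and on 1 probe each of Id4 and Sall4. FGSC held 10 of them and SSC held 1. Over the whole array, 291 probes, or 0.643%, had an out-of-order signal. Between 97.4% and 100% of other probes within 5% of these 11 signals on the same array had a detection p of 0.

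Most of the 11 signals also stood out by how they were written. Signals with 9 or more significant digits occurred on 20 probes of the array, 3 of them of Bcl6b, Neurog3 and Id4, while nearly all other signals had 7 or fewer. All 65 such signals with a detection p above 0 were too high. Their median excess over the implied signal was 243, 196 and 139 in FGSC replicates 1 to 3 and 261, 291 and 300 in SSC replicates 1 to 3. Where the detection p is 0 the order gives no upper limit, so the 8 SSC signals of this kind on these 3 probes could not be checked in that way. Lowering them by the median excess of their array, in an alternative chosen after seeing the data, gave SSC signals of 303, 229 and 240 for Bcl6b and 412, 326 and 307 for Neurog3. The differences with implied FGSC signals were then -2.77 for Bcl6b (adjusted p = 3.57e-06) and -3.67 for Neurog3 (adjusted p = 4.74e-07). Both genes were called lower in FGSC under all 3 treatments. The log2 difference ranged from -1.15 to -4.22 for Bcl6b and from -1.51 to -4.77 for Neurog3, so the sizes are not settled. The origin of the raised signals was not tested.

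**Figure D2:**
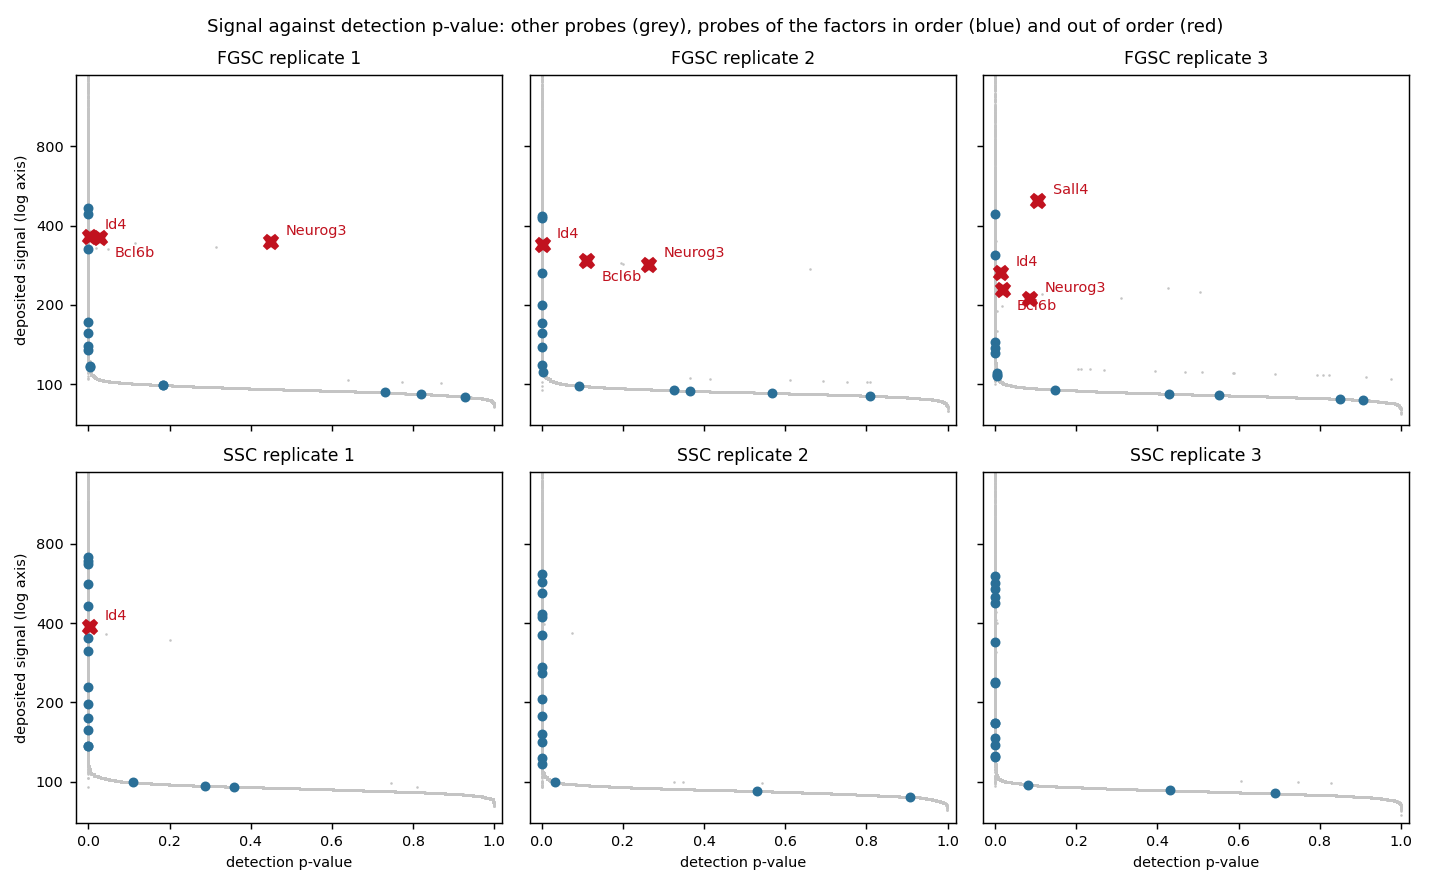
Deposited signal (linear scale on a log axis) against detection p on each array, FGSC above SSC, with a random 15000 of all probes in grey and the probes of the 10 genes in blue, or as red crosses where out of order; signals above 1500 are not drawn. The 10 FGSC signals and 1 SSC signal that are out of order lie above the grey curve, with the Neurog3 signals of 346, 285 and 210 at detection p of 0.451, 0.264 and 0.0855.

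Id4 encodes an inhibitor of basic helix-loop-helix factors. Its 2 probes, for a gene on chromosome 13, did not give the same result. The probe annotated to a cDNA accession (ILMN_1232416) had signals of 157, 157 and 145 in FGSC and 137, 124 and 124 in SSC, all at detection p of 0, with no overlap. It was 1.77-fold higher in FGSC (difference 0.82, SE 0.10, adjusted p = 0.000624). The probe annotated to the RefSeq transcript (ILMN_2678714) had 364, 337 and 263 in FGSC, at detection p of 0.00321, 0.00214 and 0.0150, and 388, 424 and 478 in SSC, at detection p of 0.00321, 0 and 0. Its 3 FGSC signals and the signal of SSC replicate 1 were out of order, 3.14, 2.95 and 2.59 times the implied signal in FGSC and 3.51 times in SSC replicate 1. Its difference was -0.51 (SE 0.19, 95% confidence interval -0.97 to -0.05, adjusted p = 0.0556), -2.22 with implied signals (adjusted p = 0.0756), and -0.60 when the signals of SSC replicates 2 and 3, which also carry 9 or more digits, were lowered as well (adjusted p = 0.244). It was called lower without SSC replicate 1 (-0.72, adjusted p = 0.0048) and with the authors' processed values (-0.48, adjusted p = 0.0430). The direction for Id4 thus differed between a called probe with signals in order and an uncalled probe without.

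Sall4, a zinc finger factor of the spalt family on chromosome 2, had 3 probes. The first (ILMN_2595478) had signals of 444, 429 and 309 in FGSC and 691, 572 and 502 in SSC, all at detection p of 0. The groups did not overlap, and the level was 1.62-fold lower in FGSC (difference -0.70, SE 0.08, adjusted p = 0.000348). With arrays scaled to a common median in place of quantile normalization the call was lost (-0.76, adjusted p = 0.0532). The second (ILMN_3124235), annotated to another transcript, had 325, 264 and 496 in FGSC and 717, 434 and 571 in SSC. The high FGSC value came from replicate 3, whose detection p was 0.107 although its signal was 5.16 times the 96.2 implied. With overlapping groups this probe was not called (difference -0.84, SE 0.42, 95% confidence interval -1.86 to 0.18, adjusted p = 0.132). It was called without FGSC replicate 3 (-1.32, adjusted p = 0.00183) and with the implied signal in its place (-2.35, adjusted p = 0.0319). The last (ILMN_2676148) was at the background everywhere, with 99.2, 94.8 and 86.9 in FGSC and 96.5, 92.1 and 92.7 in SSC, and was not tested.

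Foxo1, a forkhead factor restrained by PI3K and AKT signalling and needed for spermatogonial stem cell maintenance, did not differ by either probe at this precision. Its first probe (ILMN_2509340, chromosome 3) had signals of 118, 118 and 108 in FGSC and 136, 117 and 125 in SSC, with a difference of -0.08 (SE 0.09, 95% confidence interval -0.30 to 0.14, adjusted p = 0.474). The second (ILMN_2656498) had 135, 200 and 131 in FGSC and 158, 141 and 138 in SSC, with a difference of 0.36 (SE 0.27, 95% confidence interval -0.28 to 1.00, adjusted p = 0.285). The groups overlapped on each probe, and on the second FGSC replicate 2 was the highest of all arrays. Foxo1 was detected on all 6 arrays by each. The signals of SSC replicates 1 and 2 on the second probe were written with 8 significant digits. On FGSC replicates 1 to 3, such signals with a detection p above 0 were too high in 15 of 15, 29 of 29 and 46 of 49 cases. At a detection p of 0 the order gives no upper limit, so these SSC signals could not be checked in that way. The second probe was called higher without FGSC replicate 1 (0.61, adjusted p = 0.0462), a value that then rests mostly on FGSC replicate 2.

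Taf4b, a germ cell enriched subunit of the general factor TFIID that is needed for fertility in mice of each sex, was at the background. Its probe ILMN_2470074 had signals of 99.3, 92.6 and 95.4 in FGSC and 95.8, 87.5 and 90.3 in SSC, with detection p between 0.146 and 0.908. Its probe ILMN_2658714 had 91.6, 94.3 and 92.0 in FGSC and 99.6, 100.1 and 97.3 in SSC, detected only in SSC replicate 2 with a detection p of 0.0331. Neither probe was tested, and no level can be given for Taf4b on these arrays.

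**Figure D3:**
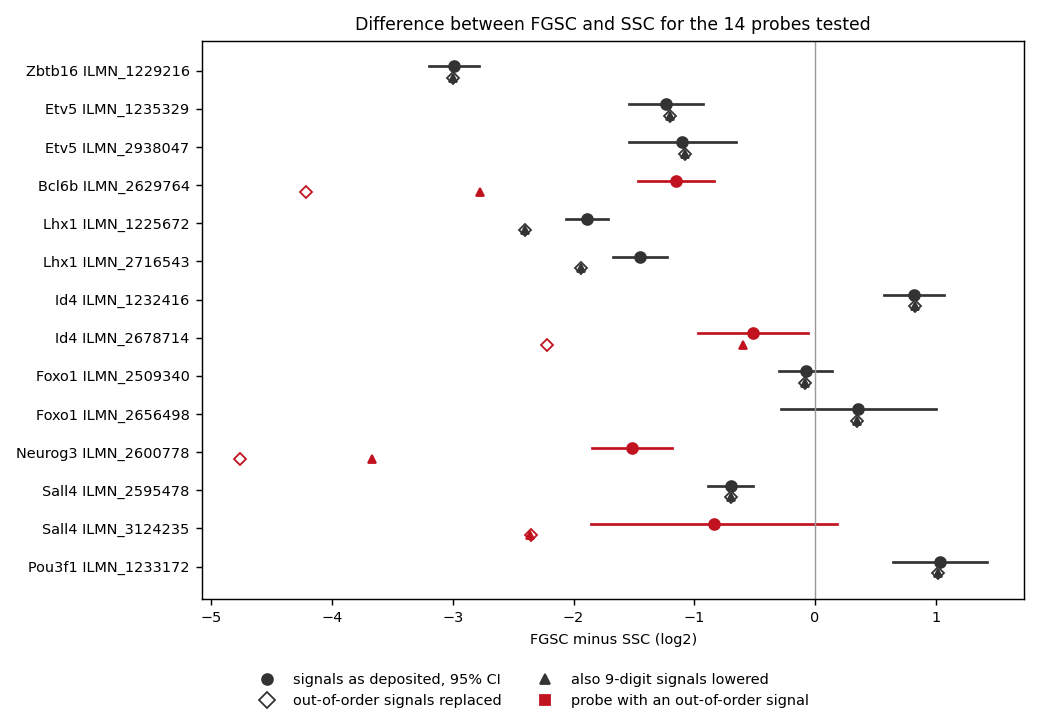
Difference in log2 level, FGSC minus SSC, of the 14 tested probes as deposited (dots, with 95% confidence intervals), with out-of-order signals replaced by those their detection p implies (diamonds), and with 9-digit signals at detection p of 0 lowered as well (triangles); red marks probes with an out-of-order signal. Zbtb16 at -2.99 and Pou3f1 at 1.04 keep their place, whereas Neurog3 spans -1.51 to -4.77. The Lhx1 probes, though in order, move from -1.89 to -2.41 and from -1.45 to -1.94.

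Of the 14 tested probes 11 had groups that did not overlap, against 68.7% of all tested probes. The 10 tested probes without an out-of-order signal included 8 calls, 2 higher (Id4 and Pou3f1) and 6 lower (Zbtb16, both Etv5 probes, both Lhx1 probes and 1 of Sall4). In a fit of all 18570 tested probes without such a signal, 59.3% were called, 5471 higher and 5533 lower. Both Lhx1 probes passed the filter only through SSC. Among the GDNF-responsive genes, Pou3f1 was thus called opposite to Etv5 and Lhx1.

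The GDNF pathway around these genes was read from lists chosen with earlier results of these data known, using the brightest in-order probe of each gene. Over the 10512 genes tested in this way 62.3% were called, 30.8% higher and 31.4% lower in FGSC, and 71.0% had groups without overlap, with a median difference of 0.00. Of the 5 GDNF and FGF receptors, 3 were tested, with none higher and 1 lower, and a median of -0.32. The call was Ret, the GDNF receptor tyrosine kinase, with signals of 110, 103 and 97.5 in FGSC and 1093, 858 and 909 in SSC. Its difference was -4.87 (SE 0.09, adjusted p = 5.71e-07). The FGF receptors Fgfr1 (0.17, adjusted p = 0.216) and Fgfr2 (-0.32, adjusted p = 0.0710) were not called. Fgfr3 was not tested. The probe of Gfra1, the GDNF co-receptor, was undetected on all 6 arrays, with signals of 98.8, 90.2 and 85.6 in FGSC and 94.0, 87.8 and 93.7 in SSC, so the arrays give no level for it in either group.

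Of 10 other genes that respond to GDNF or related growth factor signals, 9 had a probe and 8 were tested, with none higher, 7 lower and a median difference of -1.81. Dusp6, a phosphatase induced by and acting on ERK, had signals of 180, 164 and 135 in FGSC and 1775, 1467 and 1491 in SSC (difference -4.26, adjusted p = 6.92e-07). Egr2 and Egr3 encode zinc finger factors induced by growth factors, with differences of -4.33 and -2.10 (adjusted p = 1.59e-06 and 9.67e-06). A second Egr3 probe, near the background in each group, was not called (0.01, adjusted p = 0.908). Ccnd2, a cyclin counted among the 7 by its brightest probe (-1.52, adjusted p = 0.00992) and named here because its probes disagree, was lower on another probe (-2.03, adjusted p = 1.44e-05) and higher on the last (0.91, adjusted p = 0.00084). Egr4, of the same family, was undetected on every FGSC array and at least 14.8-fold lower. Tec, a cytoplasmic tyrosine kinase, was not called (-0.13, adjusted p = 0.296).

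Of 15 other regulators of undifferentiated spermatogonia, 9 were tested, with 1 higher, 5 lower and a median of -0.39. Klf4, a zinc finger factor of pluripotent cells and also of Sertoli cells, differed by -3.28 (adjusted p = 2.04e-05), and the homeobox gene Rhox10 by -1.70 (adjusted p = 1.20e-05). Nanos3, an RNA-binding protein of early germ cells, was undetected on every FGSC array and at least 2.78-fold lower. Bmi1, a Polycomb protein, was higher by 0.71 (adjusted p = 0.00134), a call lost with median scaling. Glis3 (0.03, adjusted p = 0.852) and Lin28a (0.35, adjusted p = 0.0941) were not called, although a dimmer Glis3 probe was called lower (-0.26, adjusted p = 0.0134). Without FGSC replicate 3 there were 3 calls higher, the additions being Lin28a and Stat3. Stat3, singled out after its values were seen, had a signal of 118 in that replicate against 1289 and 1093 in the other FGSC arrays and 338, 287 and 387 in SSC. The other tested Stat3 probes were called higher in FGSC with all arrays, by 1.03 (adjusted p = 0.000277) and 1.23 (adjusted p = 0.00276).

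Of 8 factors of spermatogonial differentiation, 6 were tested, with 3 higher, 2 lower and a median of 0.22. Kit, the receptor that appears on differentiating spermatogonia and is also abundant in oocytes, had signals of 3839, 4198 and 3820 in FGSC and 626, 558 and 454 in SSC (difference 3.05, adjusted p = 1.33e-05). Sohlh1, a basic helix-loop-helix factor of differentiating spermatogonia and of oocytes, was higher by 2.06 (adjusted p = 1.30e-05). The DNA methyltransferase Dnmt3b (-2.42, adjusted p = 5.34e-05) and the homeobox gene Rhox13 (-2.05, adjusted p = 0.000164) were lower. Dmrtb1, a factor at the switch from mitosis to meiosis in spermatogonia, was not called (-0.17, adjusted p = 0.127).

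**Figure D4:**
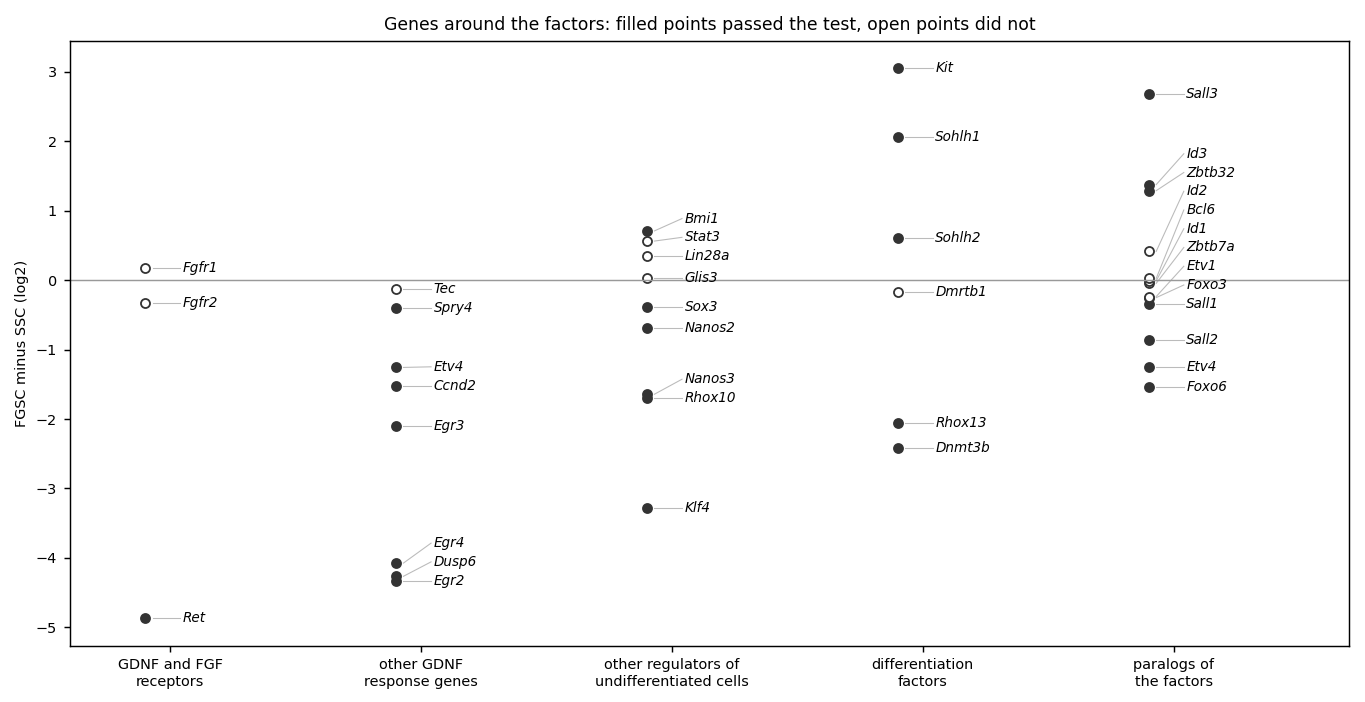
Difference in log2 level, FGSC minus SSC, of each tested gene (brightest in-order probe) in the 4 pathway lists and in a list of paralogs; filled points passed the test and open points did not. The 8 tested GDNF-response genes run from -4.33 for Egr2 to -0.13 for Tec, and the differentiation factors from -2.42 for Dnmt3b to 3.05 for Kit.

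Markers of other cell types moved between the groups, and their part in the values of the 10 genes was not tested. Of 8 germ cell markers, 6 were tested, with 1 higher, 3 lower and a median of -0.54. Dnd1 (-2.72, adjusted p = 5.60e-06) and Nanos3 (-1.64, adjusted p = 1.16e-05) were lower, and Dpep3 was not called (-0.32, adjusted p = 0.0531). Ddx4 and Dazl were detected on all 6 arrays, with differences of -0.55 (adjusted p = 0.00219) and -0.53 (adjusted p = 0.114, not called). Dazl had a second, dimmer tested probe that was called higher in FGSC, and its brighter probe was called lower without FGSC replicate 3, so no direction is given for it. Dppa3, a maternal factor that is also a marker of early germ cells, was higher by 8.19 (adjusted p = 2.52e-07). Of the 12 oocyte markers, 11 were detected on all FGSC arrays and 5 on all SSC arrays. All 9 that were tested were higher in FGSC, with a median of 3.32, and their summed linear normalized level was 27027 to 30135 in FGSC and 656 to 750 in SSC. Nlrp5, a maternal-effect gene of oocytes, differed by 8.82 (adjusted p = 1.16e-07).

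Most of the tested markers of Sertoli, Leydig and theca, and peritubular cells were called lower in FGSC. Of 6 Sertoli cell markers with a probe, 4 were tested, with 1 higher and 3 lower, and their summed level was 114 to 117 in FGSC and 586 to 673 in SSC. The marker called higher was Rhox5 (0.24, adjusted p = 0.0357). Sox9 was counted lower by its brightest in-order probe (-1.80, adjusted p = 0.000283), whereas its other tested probe was called higher. Amh and Fshr, markers of immature Sertoli cells, were undetected on every FGSC array by their brightest in-order probes. By these they were at least 12.7-fold and 4.25-fold lower. The other tested Fshr probe was not called. Of 5 Leydig and theca markers with a probe none was detected on all FGSC arrays, and 4 were on all SSC arrays. Their summed level was 106 to 109 in FGSC and 304 to 355 in SSC, with 3 of 4 tested called lower. Peritubular and smooth muscle markers summed to 295 to 321 in FGSC and 2671 to 2879 in SSC, with 4 of 5 called lower, most of it from Mylk, a myosin kinase (-4.94, adjusted p = 4.67e-07). Granulosa cell markers summed to 245 to 315 in FGSC and 399 to 445 in SSC, with 1 higher and 3 lower of 5 tested, and Foxl2, a defining granulosa gene, was not detected on all arrays of either group. Fshr, counted in the Sertoli list as well, was 1 of those 3 and gave the largest part of the gap in the sums. Endothelial markers, with 2 of 6 called lower, summed to 176 to 182 in FGSC and 255 to 263 in SSC. Most of that gap came from Cdh5, which was undetected on every FGSC array and at least 3.57-fold lower. The other called marker was Emcn. Tek was also lower in FGSC, whereas Pecam1, Kdr and Tie1 were slightly higher, all without a call. Macrophage markers, with 1 of 2 called lower, summed to 54.5 to 60.5 in FGSC and 63.8 to 68.8 in SSC. Leaving out 1 array at a time changed some of the small marker calls: granulosa calls lower numbered 1 to 3, peritubular ones 2 to 3, Leydig and theca ones 2 to 3, endothelial ones 2 to 3 and macrophage ones 0 to 1. Star, the cholesterol transporter of steroid synthesis, lost its call without FGSC replicate 1 or any SSC replicate, whereas the 9 oocyte calls and the Amh, Fshr and Mylk calls held throughout.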

How the data were processed

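The authors deposited, for each of 45281 probes on each of 6 arrays, a mean signal intensity that is not normalized per the file headers, and a detection p-value. The authors also deposited processed intensity values, whose scale is not stated. They had the same rank order as the signals on each array and a median of 19.9 in every column. How they were centred is unknown, and they were used only as an alternative. The submitters' processing notes name lumi, with no version or role. No genome build for the probes is given in the sources used here.

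Signals were corrected with neqc (limma 3.58.1, R 4.3.3), which takes the background from detection p-values and normalizes by quantiles, with an offset of 16. The fit covered the 18860 probes that reached a detection p under 0.05 on 3 or more of the 6 arrays. FGSC and SSC, grouped by the sample titles, were compared per probe with lmFit and eBayes, with no covariate and with Benjamini-Hochberg adjustment over all kept probes, and an adjusted p under 0.05 was a call. An exact permutation test of 3 arrays against 3 cannot give a p below 0.1 and was not run. The fit was checked on simulated data. The number of arrays limits the precision. A fold is given as at least N-fold where a probe was undetected on every array of a group, from the lowest detected level on each of those arrays or the probe's own, whichever was higher. Such a bound holds for this background correction and the offset of 16.

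Symbols came from the platform annotation: 34885 probes had 1 symbol, 18 had several and 10378 were unnamed here, and 34807 were matched by gene ID to a RefSeq table of GRCm38.p6, used for names and chromosomes. Genes of a list stand by the brightest kept probe with all signals in order. Named from each pathway list are up to 4 called genes with the largest difference and up to 2 uncalled genes with the smallest. Summed levels are over the tested genes of a list, offset included. The members and lists were chosen with earlier results of these data known. Alternatives covered normalization, background correction, offset, filter, array weights, a replicate block, each array left out, the processed table and the out-of-order signals. Protein sequences and probe sequences were not used here.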

Additional observations from a re-analysis of the deposited data

How the results depend on the processing

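No called difference of the tested probes of the 10 genes changed sign under any alternative listed with the processing. With a detection p under 0.01 on all 6 arrays, 6826 of 10996 probes were called (3867 higher, 2959 lower) and 6 of 8 probes of the 10 genes (2 higher, 4 lower), because fewer probes were tested. Leaving out each array in turn gave 9337 to 11707 called probes, of which 10 to 11 were probes of the 10 genes. Median scaling gave 8226 calls, 3146 higher and 5080 lower, with the median of all probes at -0.12. Zbtb16, Etv5, Lhx1, Pou3f1, Bcl6b and Neurog3 kept their calls wherever their probes were tested. The calls of Sall4, Id4 and Foxo1 that changed are given in the report. Array weights gave 13592 calls over all probes and called 13 of the 14 tested probes of these genes, 3 higher and 10 lower. The additional calls were the uncalled tested probes of Id4 (adjusted p = 0.0348) and Sall4 (adjusted p = 0.00185) and 1 of the 2 Foxo1 probes (adjusted p = 0.0189). FGSC replicate 2 had a weight of 5.10, against 0.67 and 0.22 for FGSC replicates 1 and 3. The FGSC values in that setting thus rested mostly on 1 array. With out-of-order signals replaced, 11805 probes were called, and the background SD estimated by neqc was 3.97 to 4.34 on FGSC arrays and 3.81 to 4.10 on SSC arrays, against 12.8 to 18.3 on FGSC and 12.9 to 13.6 on SSC arrays as deposited. Replicate numbers did not pair the samples (correlations of deviations -0.22, -0.04 and -0.23), and with the replicate block 9733 probes were called, 10 of them of these genes. Signals near the background limit the values of Taf4b, Gfra1 and the third Sall4 probe, and the sizes for Zbtb16 and Lhx1. In the main fit the difference was -2.99 for Zbtb16 and -1.89 and -1.45 for the Lhx1 probes. With an offset of 50 these were -2.22, -1.11 and -0.81, and without background correction -1.72, -0.94 and -0.72. Among list genes, the calls of Sohlh2, Rhox5 and Sall1 were each lost without at least 1 array (Sohlh2 without SSC replicate 1 or 2, Rhox5 without FGSC replicate 1 or any SSC replicate, Sall1 without FGSC replicate 1 or 2 or SSC replicate 1 or 2), Fgfr2 was called without FGSC replicate 2, Dazl was called lower without FGSC replicate 3, with the replicate block, with array weights and with median scaling, and Ddx4 was not called with median scaling. No called list gene changed sign.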

Other observations

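Relatives of these factors from the same gene families did not move one way. Of 21 listed paralogs, 20 had a probe and 13 were tested, with 3 higher and 4 lower in FGSC and a median difference of -0.05, against 0.00 over all genes. Sall3, a spalt family factor like Sall4, had signals of 277, 257 and 262 in FGSC and 112, 106 and 96.6 in SSC (difference 2.68, limma adjusted p = 1.73e-05), opposite in sign to the first Sall4 probe. Id3, an inhibitor of basic helix-loop-helix factors like Id4, was higher by 1.38 (adjusted p = 0.00498), whereas Id1 was not called (-0.01, adjusted p = 0.947). Foxo6 was lower by 1.53 on the log2 scale (difference -1.53, adjusted p = 2.17e-05), while neither Foxo1 probe was called. Zbtb32, a BTB zinc finger factor like Zbtb16, was higher by 1.29 (adjusted p = 0.000358), and Bcl6, the paralog of Bcl6b, was not called (0.02, adjusted p = 0.857).

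The probes whose 6 centred log2 values lay nearest to those of Zbtb16, by Euclidean distance among 15890 singly named probes of other genes, belonged to C1qtnf3 (distance 0.101), Grasp (0.112 and 0.167 on 2 probes), 5730409K12Rik (0.135) and Zfp518b (0.148). Their differences lay between -2.96 and -3.01, beside -2.99 for Zbtb16. With 2 groups this likeness reflects mainly the size of the difference between them.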
